A study of Bos taurus with 13 samples.

Results

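The immediate early transcription factors *FOS*, *FOSB*, *JUN*, *JUNB*, *JUND*, *EGR1*, *EGR2*, *EGR3*, *IER2* and *ATF3* were followed by gene name in the RNA of whole blood from dairy cows with high or low cortisol in milk. The 10 genes were chosen by name and not by their counts. A row was found under 9 of the 10 names among 16095 named genes, and *JUND* was not analysed here. Of these 9 genes, 8 passed the filter on low counts together with 11033 named genes in all, and *EGR3* lay below it.

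Immediate early genes are switched on within minutes of a signal at the cell surface, without the need for new protein. Kinase cascades act on factors already bound at their promoters, such as serum response factor and its ETS partners, and the messenger RNAs are short-lived. FOS and JUN proteins pair through leucine zippers to form the AP-1 factor, ATF3 pairs with JUN proteins, EGR proteins bind GC-rich sites through zinc fingers, and IER2 is a small nuclear protein. In blood leukocytes these genes respond to activation of the cells and to handling of the sample, and glucocorticoid receptor is known to restrain AP-1.

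The study ranked cows by milk cortisol, a marker of stress, and asked how DNA methylation and gene expression in blood differed between the ends of that ranking. Only gene expression was read here. The counts used here are from 13 cows, with 1 library each: 7 had high milk cortisol (cows 1 to 7) and 6 had low milk cortisol (cows 8 to 13). All were labelled Italian Red Pied, none is labelled with a treatment, and no cortisol value is attached to a single library. Blood from the tail vein was taken into PAXgene tubes, which preserve RNA, and was frozen 4 h later, globin RNA was not depleted, and an RNA integrity number of at least 7 was required. Whole blood is a mixture, so fewer cells of a type and less RNA per cell cannot be told apart in any value below.

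Named genes held 12198355 to 23709740 counts per cow in the high group and 11045599 to 28124575 in the low group. No library was a copy of another, and r of log2 raw counts (1 added to each) across named genes was between 0.97 and 0.99 for every pair of libraries. Levels are CPM, the counts scaled to library size after TMM normalization. A count of 0 allows up to 3 counts, worth 0.107 to 0.272 CPM here, for counting error only. Of the blood cell markers with a row, none was at 0 in all cows. Summed neutrophil markers were between 5171 and 10284 CPM in the high group and between 7912 and 10862 CPM in the low group, and the 12 T cell markers between 3216 and 5082 CPM over both groups. Summed erythroid markers were at 373 to 7839 CPM in the high cows and 138 to 570 CPM in the low cows, ranges that overlap. Cow 7 had the largest share of counts in named haemoglobin genes, 0.815%. Of the 4 erythroid markers tested, 3 had an unadjusted edgeR p below 0.05, against 2.09% of all 11033 genes tested. So did 2 of 10 neutrophil markers and 1 each of 7 monocyte, 8 B cell and 6 platelet markers. No marker had an adjusted edgeR p below 0.05.

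The 9 genes spanned a wide range of levels in blood, and their order was almost the same in every cow but cow 7, where *EGR2* was the lowest. Per kilobase of exon, *IER2* was the highest at 227.7 ± 28.3 CPM per kb (SD, n = 13 cows), followed by *JUNB* at 122 ± 27.0, *JUN* at 43.8 ± 21.5, *FOS* at 15.4 ± 3.61 and *ATF3* at 7.97 ± 2.39 CPM per kb. *EGR2* at 2.38 ± 0.917, *EGR1* at 2.01 ± 0.584, *FOSB* at 1.29 ± 0.284 and *EGR3* at 0.414 ± 0.285 CPM per kb made up the lower end. Among the genes tested, *IER2* lay at the 96.4th percentile of level per kilobase and *JUNB* at the 92.6th, whereas *EGR1* lay at the 17.0th and *FOSB* at the 12.1st.

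Each gene exceeded the next in this order in 13 of 13 cows, with 1 exception. *EGR2* exceeded *EGR1* in 9 of 13 cows, by 0.17 ± 0.55 on the log2 scale of CPM per kb (SD), so these neighbours did not differ beyond their spread. These counts compare neighbours only. In cow 7, *EGR2* at 0.742 CPM per kb lay below *EGR1* (1.51), *FOSB* (1.37) and also *EGR3* (0.792). The order uses annotated exon lengths. By mean CPM, *EGR1* (6.21) lay above *FOSB* (4.14) and *EGR2* (4.13). The step from *IER2* to *JUNB* was 0.92 ± 0.30 and that from *JUNB* to *JUN* was 1.57 ± 0.42 on the log2 scale of CPM per kb. *JUN* stood above *FOS*, its AP-1 partner, by a ratio between 1.65 in cow 9 and 5.98 in cow 8, with a median of 2.71.

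**Figure D1:**
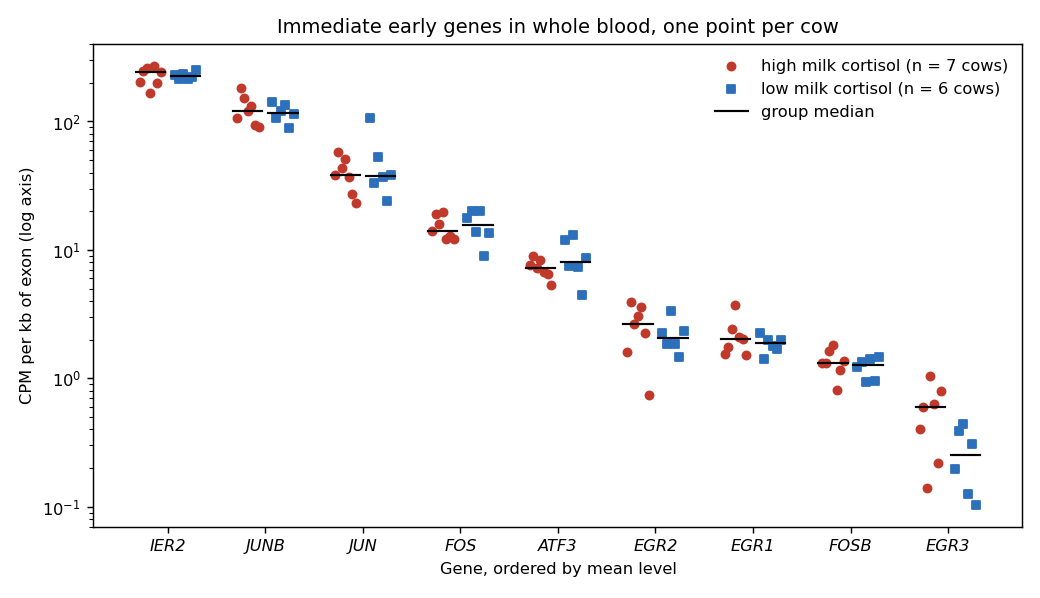
Level of each gene in each cow, as CPM per kb of exon on a log axis, with genes ordered by mean level. Circles are the 7 cows with high milk cortisol, squares the 6 cows with low milk cortisol and black bars the group medians. The groups overlapped for all 9 genes, and *JUN* of cow 8 stood above the other cows.

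*FOS* and *FOSB* encode the partners that bind DNA only when joined to a JUN protein. *FOS* lies on chromosome 10 at 86883739 to 86887169 (UMD3.1, plus strand, 4 exon intervals), and its counts came from 210 to 1146 reads per cow. In the high cows *FOS* had its lowest value at 25.3 CPM, its median at 29.4 CPM and its highest at 41.2 CPM. The low cows ran from 18.9 CPM in cow 12 to 42.0 CPM in cow 11, with a median of 32.9 CPM. The low group therefore held both the lowest and the highest *FOS* level, and every high cow lay inside its range.

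*FOSB*, which lies on chromosome 18 at 53501995 to 53508395 (plus strand, 4 exon intervals), was about as variable as *FOS* but much lower. Its level in the high cows was 2.60 CPM at the lowest (cow 5), 4.23 CPM at the median and 5.88 CPM at the highest (cow 4). The 6 low cows lay between 2.99 and 4.69 CPM, with a median of 4.11 CPM, inside the range of the high cows. With 34 to 124 reads per cow, counting alone would give a coefficient of variation (CV) of 11.5%, against the 22.0% observed.

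*JUN* encodes the AP-1 subunit that can pair with itself as well as with FOS proteins, and its CV over the 13 cows was 49.0%, or 28.9% without cow 8, an alternative chosen after seeing the data. It lies on chromosome 3 at 87841042 to 87843087 (plus strand), in 2 exon intervals of the annotation that are 96 bases apart. The high cows ran from 45.4 CPM in cow 7 to 113.7 CPM in cow 2, with a median of 75.1 CPM. Among the low cows the lowest was 47.0 CPM (cow 12), the median 73.4 CPM and the highest 206 CPM (cow 8). Cow 8 alone lay above the high group, and the group medians were close to each other. The CV of *JUN* was 31.2% in the high group and 60.9% in the low group (28.0% without cow 8), with 2.47% from counting.

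*JUNB*, a JUN protein that activates transcription less strongly than JUN, is encoded on the minus strand of chromosome 7 at 13851131 to 13852933 in 1 exon. The high cows reached from 164 CPM (cow 7) to 329.5 CPM (cow 2), with a median of 219 CPM. The low cows lay between 160.3 CPM (cow 12) and 254 CPM (cow 8), with a median of 211 CPM. Cows 2 and 3 stood above every low cow, and the other 5 high cows lay within the range of the low group.

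*ATF3*, a stress-responsive factor of the ATF/CREB family that often represses its targets, lies on the minus strand of chromosome 16 at 72820026 to 72832974 (4 exon intervals). Its level in the high cows was between 10.6 CPM in cow 7 and 17.9 CPM in cow 2, with a median of 14.3 CPM. The low cows spread more widely, from 8.83 CPM in cow 12 to 26.2 CPM in cow 10, with a median of 16.0 CPM. Cows 8 and 10 lay above all high cows and cow 12 below them, and the CV was 16.8% in the high group and 36.4% in the low group. That difference in spread was not tested.

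The EGR genes, encoding zinc finger factors, were all low in blood. *EGR1* (chromosome 7 at 51438727 to 51442500, plus strand, 2 exon intervals) was between 4.65 and 11.4 CPM in the high cows, with a median of 6.19 CPM. Low cows had 4.36 to 6.97 CPM of *EGR1*, with a median of 5.80 CPM. Only cows 3 and 4 of the high group exceeded the range of the low group, and cow 4 held the highest value.

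*EGR2*, known in lymphocytes for its part in anergy, lies on the minus strand of chromosome 28 at 19012870 to 19015927 in 2 exon intervals. Its high cows held both ends of the distribution, with 1.29 CPM in cow 7, a median of 4.63 CPM and 6.84 CPM in cow 2. Its low cows lay between 2.52 and 5.84 CPM, with a median of 3.57 CPM. The SD of log2 CPM over the 13 cows was 0.62 for *EGR2*, at the 88.5th percentile of the genes tested and the largest of the 8 members that passed the filter, next to 0.58 for *JUN*. The median SD over all genes tested was 0.31.

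*EGR3* (chromosome 8 at 70503688 to 70506163, minus strand, 2 exon intervals) was close to the limit of detection, with 2 to 20 reads per cow. Its values in the high cows were 0.163 CPM at the lowest (cow 3), 0.696 CPM at the median and 1.21 CPM at the highest (cow 4). The low cows lay between 0.120 and 0.508 CPM, with a median of 0.295 CPM. Cows 2, 4, 5 and 7 of the high group were above every low cow, and the groups overlapped.

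*IER2*, the most abundant member, lies in 1 exon on the minus strand of chromosome 7 at 13543664 to 13545435, 305695 bases from *JUNB*. Its level was between 295.9 CPM in cow 4 and 480 CPM in cow 5 in the high group, with a median of 430.4 CPM. The low cows were between 379 and 448 CPM, with a median of 401 CPM, all inside the range of the high cows. With an SD of 0.19 on the log2 CPM scale, *IER2* was the steadiest of the members and lay at the 16.6th percentile of spread among the genes tested.

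The comparison of high with low cortisol asked whether any of these genes differed between the groups. Fold changes are log2, high minus low, from edgeR's quasi-likelihood fit, with standard errors (SE). None of the 8 members in that fit had an unadjusted p below 0.05, where 2.09% of the 11033 genes tested did. No member passed an adjusted p of 0.05 either, and neither did any other gene (0%), while DESeq2 called 1 of 14346 genes, which was no member. The median log2 fold change of the 8 members was 0.05, beside 0.01 for all genes tested, and 4 of the 8 were above 0.

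Among the AP-1 genes, the log2 fold change was -0.06 for *FOS* (SE 0.18), 0.14 for *FOSB* (SE 0.21), -0.29 for *JUN* (SE 0.29), 0.10 for *JUNB* (SE 0.16) and -0.29 for *ATF3* (SE 0.21). The EGR genes in the filtered fit gave 0.21 for *EGR1* (SE 0.22) and 0.22 for *EGR2* (SE 0.32), and *IER2* gave -0.01 (SE 0.11). The adjusted p of the edgeR test was 0.998 for all 8. The intervals say which changes remain possible. For *IER2* the 95% interval ran from 0.844-fold to 1.18-fold, for *JUNB* from 0.843-fold to 1.36-fold and for *FOS* from 0.735-fold to 1.26-fold. For *EGR2* it reached from 0.727-fold to 1.86-fold and for *JUN* from 0.532-fold to 1.26-fold. Without cow 8 the log2 fold change of *JUN* was 0.11, on the other side of 0. Without cow 12, *ATF3* alone had an unadjusted p below 0.05, with a log2 fold change of -0.43 and an edgeR adjusted p above 0.05.

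*EGR3* gave the largest difference of the 9 genes, in a fit that kept genes with low counts. Its mean was 0.636 ± 0.371 CPM in the high group (SD, n = 7) and 0.303 ± 0.162 CPM in the low group (SD, n = 6). The log2 fold change was 1.11 (SE 0.52), with a 95% interval from 0.02 to 2.21 and an adjusted edgeR p of 0.998. It was the 1 of 9 members with an unadjusted p below 0.05 in that fit, where 2.88% of 14377 genes were, and 5 of the 7 high cows exceeded the median of the low cows. By the exact two-sided permutation test of mean log2 CPM over all 1716 ways to assign 7 and 6 cows, the p of *EGR3* was 0.0851, and the smallest that test can give is 5.8e-04. Counting error is large at this level, with an expected CV of 33.8% against 68.7% observed. The haemoglobin share of the counts was 0.0282% to 0.815% in the high and 0.0114% to 0.0552% in the low cows. It sums the named genes *HBB*, *HBG*, *HBM* and *HBQ1*, with 323364 counts of *HBB* and 6187 of *HBG*, the next. With this share as a covariate the log2 fold change of *EGR3* was 0.89, and without cow 4 it was also 0.89. The unadjusted edgeR p was no longer below 0.05 with that covariate or with the neutrophil minus T cell score as a covariate. Nor was it below 0.05 when any 1 of 8 of the 13 cows was left out (cow 2, 4, 5, 7, 8, 11, 12 or 13). The unadjusted p of limma-voom was 0.0552.

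The exact permutation test put none of the 9 members below a p of 0.05, where it put 2.18% of 14377 genes. The p from that test was between 0.374 and 0.897 for the other 8 genes. All 9 had overlapping groups, and 0.0272% of the 11033 genes tested had groups that did not overlap.

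**Figure D2:**
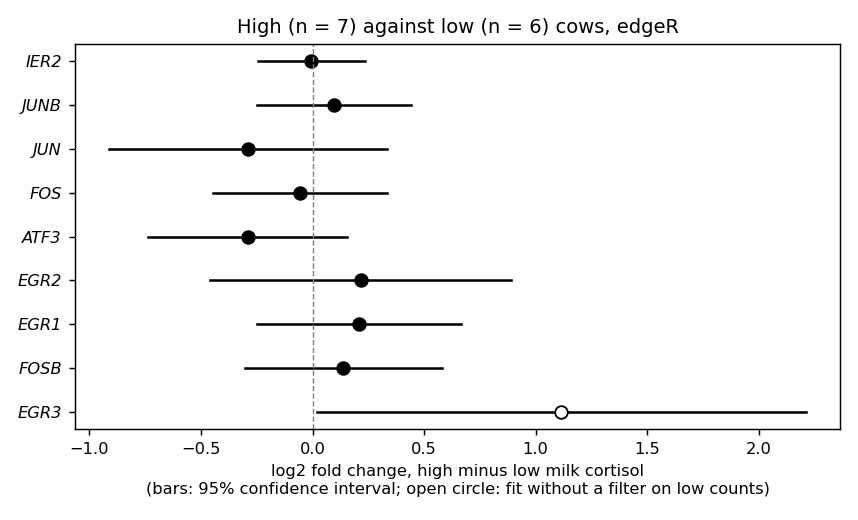
Log2 fold change of each gene, high minus low milk cortisol, with bars for the 95% confidence interval of the edgeR fit (7 high and 6 low cows). Filled circles are from the filtered fit and the open circle is *EGR3*, fitted with no filter on low counts, whose interval alone lies above 0, starting at 0.02.

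Across cows, *JUN* and *ATF3* co-varied, and this was the 1 pair of members past the correction by Pearson. The median Pearson r of log2 CPM over the 28 pairs of the 8 members was 0.34, with a jackknife SE over cows of 0.16, beside -0.00 over all pairs of genes tested. It was 0.54 over the 21 pairs without *IER2* and -0.00 over the 7 pairs with it, 4 of which were below 0. An r of 0.7 or more was found in 2 of the 28 pairs (7.14%), against 4.41% of all pairs of genes tested, and 5 of the 28 were below 0.

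*JUN* and *ATF3* were the pair with the highest r. Their Pearson r was 0.85 (permutation p = 2.9e-04, adjusted over the 28 pairs 0.00812) and their Spearman rho was 0.88 (permutation p = 1.8e-04, adjusted 0.00504). Without cows 7 and 8, which were farthest from the median of *JUN*, r was 0.82. It was 0.96 within the high group and 0.83 within the low group. Of all genes tested, 0.145% had as high an r with *JUN* as *ATF3* had. The order of the cows can be read in both genes, with cows 2, 8 and 10 as the 3 highest and cows 7 and 12 as the lowest.

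*JUN* and *JUNB* had r = 0.72 (permutation p = 0.00571, adjusted 0.0703) and rho = 0.79 (permutation p = 0.0023, adjusted 0.0322), so the rank measure alone passed the correction. Without cows 7 and 8 their r was 0.77, and it was 0.85 in the high and 0.79 in the low group. *JUNB* and *EGR2* had r = 0.70 (adjusted permutation p = 0.0703) and rho = 0.65 (adjusted permutation p = 0.172), and without cows 2 and 12 their r was 0.59. The other 25 pairs passed neither correction. By Pearson, 1 pair passed in all. That number was 0 without cow 7, where *JUN* and *ATF3* had r = 0.83 (adjusted permutation p = 0.0535), and 3 without cow 8, where *JUN* passed with *JUNB*, *EGR2* and *ATF3*.

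*FOS* was closest to *JUNB* and *FOSB*, with an r of 0.61 for both (adjusted permutation p = 0.151 for both) and rho of 0.54 and 0.55 (adjusted permutation p = 0.19 for both). Without cows 11 and 12, the highest and lowest in *FOS*, these r were 0.48 and 0.52. *FOSB* had r = 0.14 with *JUN* and 0.06 with *ATF3*, and its r with *EGR2* was -0.13. *EGR1* was closest to *EGR2*, with r = 0.54 (adjusted permutation p = 0.165) and rho = 0.57 (adjusted permutation p = 0.19), and cow 4, the highest in *EGR1*, was the lowest in *IER2*. *IER2* had r = -0.39 with *FOSB* (rho = -0.10) and -0.32 with *EGR1* (rho = 0.13), and without cows 4 and 5, the farthest from the median of *IER2*, these r were 0.35 and 0.42, so the negative values rested on those cows.

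**Figure D3:**
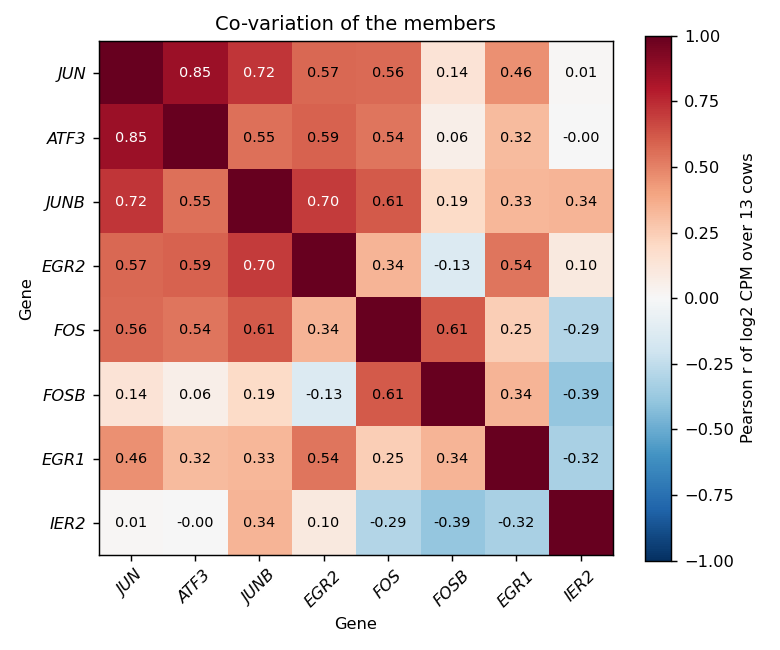
Pearson r of log2 CPM over 13 cows for each pair of the 8 members above the filter, from -1 (blue) to 1 (red). The values run from 0.85 for *JUN* with *ATF3* to -0.39 for *FOSB* with *IER2*, and *IER2* with *JUNB* (0.34) is as high as *FOS* with *EGR2* (0.34).

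**Figure D4:**
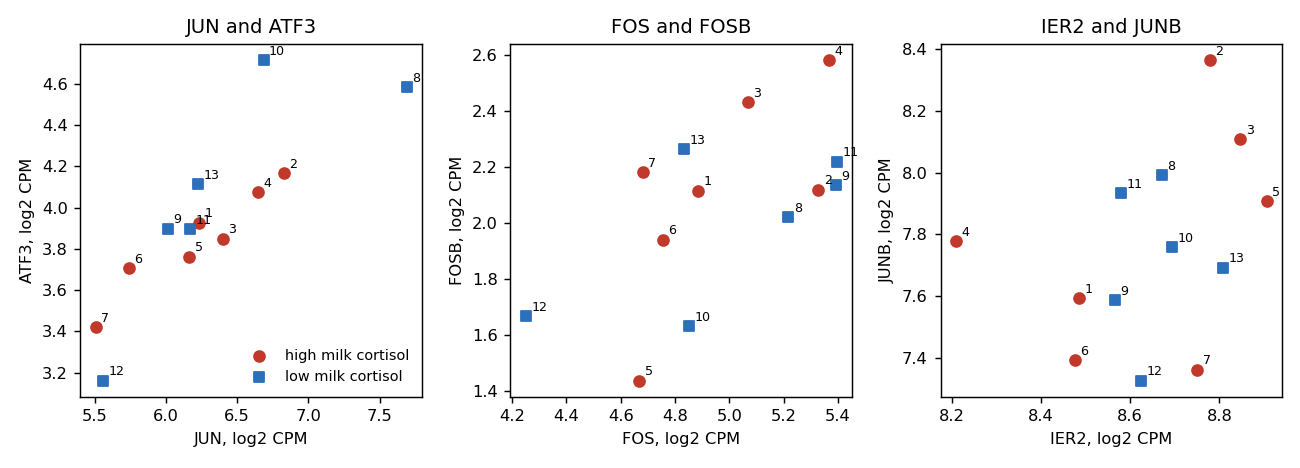
Log2 CPM of *JUN* against *ATF3*, *FOS* against *FOSB* and *IER2* against *JUNB*, 1 point per cow with the cow number, circles for high and squares for low milk cortisol. *JUN* and *ATF3* rise together (r = 0.85), *FOS* and *FOSB* less tightly (r = 0.61), and *IER2* and *JUNB* loosely (r = 0.34).

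The median of the members, taken in each cow over the 8 centred log2 CPM values, was highest in cow 4 (0.37) and cow 2 (0.29) and lowest in cow 12 (-0.50) and cow 7 (-0.38). Cows of both groups were thus found at both signs. *JUNB* and *JUN* followed this median most closely, with r of 0.82 and 0.81, whereas *FOSB* had r = 0.44 and *IER2* -0.04. Each member is part of the median it was set against.

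Markers of blood cells varied among the same cows. Cow 7, which was low in *JUN*, *JUNB*, *ATF3* and *EGR2*, also had the lowest scores of neutrophil markers (-0.58, 10 of 13 listed genes) and monocyte markers (-0.73, 7 of 8 listed genes), a score being the mean over the listed genes of log2 CPM after centring. The highest of both scores were in cow 2, at 0.39 and 0.50. Cow 12, the lowest in the median of the members, had a neutrophil score of 0.06 and a monocyte score of -0.14. Cow 7 was above the median of all cows in *FOSB* (4.42 against 4.23 CPM) and *IER2* (430 against 408 CPM). It was also above it in *EGR3* (0.922 against 0.451 CPM) and below it in the other genes. In 72 relations between a member and a marker score or the total counts, none passed an adjusted p of 0.05 by Pearson or by Spearman. Cow 8 had the most total counts and cow 12 the fewest. With log2 total counts, *JUN* had r = 0.41 and *JUNB* r = 0.32, or -0.16 and 0.05 without cows 8 and 12. Within the low group these r were 0.74 and 0.97, and within the high group -0.25 and -0.16. The part of depth was not tested further. *EGR2* had r = 0.74 with the monocyte score (adjusted permutation p = 0.258) and rho = 0.46 (adjusted permutation p = 0.487), and without cows 2 and 7 the r was 0.15, so that it rested on these cows. *JUN* had r = 0.66 with the same score (adjusted permutation p = 0.267) and rho = 0.61 (adjusted permutation p = 0.289), with 0.58 when cows 2 and 7 were left out. *FOS* and the B cell score ran opposite, with r = -0.73 (adjusted permutation p = 0.258), rho = -0.76 (adjusted permutation p = 0.26), and r = -0.74 without cows 5 and 7. With the neutrophil minus T cell score of each cow regressed out, *JUN* and *ATF3* had r = 0.80 (adjusted permutation p = 0.116), so their relation no longer passed the correction. The part of cell composition in the co-variation was not tested further.

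**Figure D5:**
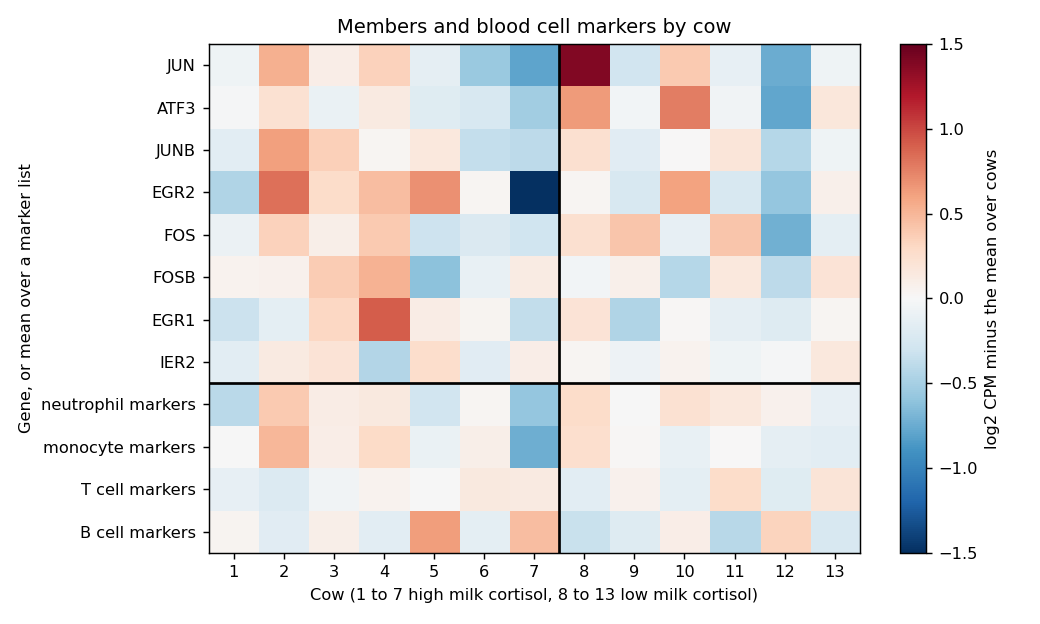
Log2 CPM minus the mean over the 13 cows for the 8 members above the filter (upper rows) and, as means over lists, for neutrophil, monocyte, T cell and B cell markers (lower rows). Columns are cows, with 1 to 7 high and 8 to 13 low in milk cortisol. Cow 7 is blue in *EGR2*, *JUN* and the neutrophil and monocyte rows, cow 8 is darkest in *JUN* (206 CPM), and *IER2* is pale throughout.

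Other genes around these factors were read in 7 lists, and none of their tested members had an adjusted p below 0.05. With an unadjusted p below 0.05, 1 gene of the 25 tested in the list of other immediate early genes was found, against 2.09% of all genes tested. It was *PTGS2*, the inducible cyclooxygenase of prostaglandin synthesis, with a mean of 4.02 CPM in the high and 2.03 CPM in the low group, a range from 0.902 to 10.6 CPM and a log2 fold change of 0.98 (SE 0.45). The edgeR adjusted p of *PTGS2* was 0.998. The other 6 lists held no such gene in either direction. Their median log2 fold changes were between 0.01 and 0.10, and that of the other immediate early genes was -0.02.

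Relatives of FOS and JUN were well expressed. *BATF*, an AP-1 factor of lymphocytes, had 89.7 ± 22.8 CPM per kb (SD, n = 13), *JDP2*, a repressor that pairs with JUN, had 29.6 ± 3.37 and *FOSL2*, a FOS protein, had 24.5 ± 7.11 CPM per kb. *FOSL2* followed the median of the members with r = 0.83, at rank 19 of the genes tested, and *BATF* did not (r = -0.27). Over the 10 relatives tested, of 11 listed, the median r with that median was 0.38, beside 0.00 for all genes tested, and 3 of the 10 had r of at least 0.7, as did 152 of the 11033 genes.

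In the ATF and CREB family the most abundant genes were *ATF4*, the main factor of the integrated stress response, at 417 ± 44.5 CPM per kb (SD, n = 13), *ATF6B* at 91.0 ± 8.73 and *CREB3* at 54.4 ± 10.2 CPM per kb. Their r with the median of the members was -0.11, 0.25 and -0.34. The corepressors of EGR proteins, *NAB2* at 17.5 ± 1.29 and *NAB1* at 6.82 ± 2.28 CPM per kb, had r of -0.09 and 0.27. None of the 10 ATF and CREB relatives and neither corepressor reached an r of 0.7.

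Upstream of the members, *SRF*, which binds their serum response elements, was at 26.3 ± 3.19 CPM per kb (SD, n = 13), its cofactor *MKL1* at 54.2 ± 8.21 and the ETS partner *ELK1* at 18.1 ± 1.66 CPM per kb. The r with the median of the members was 0.38 for *SRF*, 0.16 for *MKL1* and 0.64 for *ELK1*. Of the MAP kinase pathway, the effector kinases *MAPKAPK2* (174.8 ± 27.5 CPM per kb) and *RPS6KA1* (159.9 ± 22.7) were the highest of 21 tested. Their r with the median of the members was 0.22 for both. Of the 21, 1 reached 0.7 with that median, as did 152 of the 11033 genes tested. It was *MAP2K4*, a kinase that activates JNK (r = 0.81), which was named after its value was seen.

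Genes that act to switch the response off held several with patterns like those of the members. Among 17 tested phosphatases, mRNA decay factors and inhibitors, 6 had r of at least 0.7 with the median of the members. Of all 11033 genes tested, 152 did. The list's median r was 0.43. *ZFP36*, which speeds the decay of short-lived messenger RNAs, was at 217.7 ± 41.9 CPM per kb (SD, n = 13) and had r = 0.67 with the median of the members and 0.82 with *JUN*. *NFKBIA*, the inhibitor of NF-kappaB, was at 117 ± 34.0 CPM per kb with r = 0.80, and *DUSP2*, a MAP kinase phosphatase, was the highest at 258.5 ± 69.4 CPM per kb with r = 0.38. *TNFAIP3* and *DUSP6*, named after their values were seen, had r of 0.86 and 0.84, at ranks 6 and 13 of the genes tested.

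In the list of other immediate early genes the median r was 0.48 over 25 tested of 36 listed. Of these 25, 3 reached 0.7, beside 152 of all 11033 genes tested. *BTG1*, an antiproliferative gene, was the highest at 547 ± 76.8 CPM per kb (SD, n = 13) with r = 0.62, followed by the cytokine *IL1B* at 285 ± 56.1 with r = 0.21 and the kinase *SGK1*, which glucocorticoids induce, at 87.8 ± 26.6 CPM per kb with r = 0.40. *KLF6*, named after its value was seen, had r = 0.85 at rank 8. These r describe the same 13 cows, whose cell mixtures differed, and carry no test.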

How the data were processed

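RNA of whole blood from 13 cows was counted per gene. Per the file headers, the authors deposited raw counts per gene name made with featureCounts 1.4.6-p3 and Ensembl release 88 models of UMD3.1, without options on strandedness, pairing or multiple mapping, while the submitters' processing notes name STAR 2.7.3, Subread 1.6.5 and ARS-UCD1.2. The header paths contain the word goat and animal numbers other than those of the tables. Groups came from the labels alone. Genes without a name share 1 entry (13.9% to 16.7% of counts), which was left out. Positions are on UMD3.1.

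After TMM scaling, CPM and, with a prior count of 2, log2 CPM were taken. Groups were compared with edgeR 4.0.16 in R 4.3.3 (robust quasi-likelihood, filterByExpr with minimum count 10 and minimum total 15, Benjamini-Hochberg over all genes tested), and *EGR3*, below the filter, in a fit without it. Alternatives were DESeq2 1.42.0, limma-voom (limma 3.58.1), RLE factors, no filter, haemoglobin genes left out, covariates and each cow left out. Correlations have 100000 permutations. A marker score is the mean of centred log2 CPM over a list. Scripts were tested on simulated counts. The members, lists and tests were chosen with earlier results of these data known. All members were named with, per list, the 3 genes highest per kb and any with an unadjusted p below 0.05, and the 5 genes closest to the members' median and to *FOS*, and 1 gene that this rule names is not reported here. With 1 library per cow, p-values measure the spread between these cows.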

Additional observations from a re-analysis of the deposited data

Results flagged for a closer look

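In 18 groups (9 genes in 2 groups of cows) the highest and lowest cow were each set against the other cows of their group, by the gap to the nearest cow as a share of the range in CPM. Of these 36 comparisons 2 passed the 95% limit, where chance gives 0.9, and none did on the log2 scale. *JUN* of cow 8 in the low group, at 206 CPM, stood far above the other low cows. *EGR1* of cow 4 in the high group, at 11.4 CPM, stood far above the other high cows.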

How the results depend on the processing

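No member passed an adjusted p of 0.05 in any of 20 alternatives to the edgeR fit. The number of members with an unadjusted p below 0.05, 0 as reported, was 1 with DESeq2 and 1 without the filter on low counts (*EGR3* in both, which the reported count could not hold), and between 0 and 1 when single cows were left out (1 without cow 12, *ATF3*). *FOS* and *JUN* turned to log2 fold changes of 0.0241 and 0.0754 with the haemoglobin share as a covariate. Leaving out single cows gave -0.17 to 0.0282 for *FOS*, -0.42 to 0.11 for *JUN* (0.11 without cow 8), -0.0133 to 0.16 for *JUNB* and -0.052 to 0.0557 for *IER2*, values that cross 0. *FOSB*, *EGR1*, *EGR2*, *EGR3* and *ATF3* kept their direction in all 20, but *EGR1* was 0.0225 without cow 4, *ATF3* was -0.0276 with the haemoglobin covariate, *EGR2* ran from 0.0573 (limma-voom) to 0.61 (haemoglobin covariate) and *EGR3* from 0.89 to 1.34. The number of pairs past the correction, 1 as reported, was 2 with Spearman's rho, 3 centred on group means, 0 for residuals on the neutrophil minus T cell score, and 0 (without cow 7) to 3 (without cow 8) when single cows were left out. The r of *JUN* and *ATF3* was 0.80 on those residuals and 0.83 without cow 7, with adjusted permutation p of 0.116 and 0.0535. The causes were not tested. The median r over pairs was between 0.29 and 0.48 in 18 alternatives. Depth limits *EGR3*, with 2 to 20 counts per cow, most. No paired analysis was possible because the groups share no replicate number.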

Other observations

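Outside the lists, the genes whose log2 CPM over the 13 cows was most like the median of the members were *RTN3* (r = 0.91), *IRF2BPL* (0.88), *MB21D2* (0.87), *PATJ* (0.87) and *PTPN9* (0.86). *PATJ* was low, at a mean of 1.22 CPM, and *RTN3* was at 79.2 CPM. The r of *RTN3* was 0.90 within the high group and 0.96 within the low group. These are the highest of 11033 genes and carry no test.

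For *FOS* alone the closest were *NXPE3* (r = 0.90), *WDR45B* (0.88), *PELI1* (0.86), *HEXIM1* (0.86) and *DLC1* (0.86). *DLC1* was low, at a mean of 1.29 CPM. *PELI1* encodes a ubiquitin ligase of Toll-like and interleukin-1 receptor signalling, and HEXIM1 holds the elongation factor P-TEFb inactive. For *JUN*, added after its values were seen, the closest were *TBC1D14* (r = 0.93), *SEMA7A* (0.93), *IRF2* (0.92), *PFKFB3* (0.91) and *THEMIS2* (0.90). *PFKFB3*, an enzyme that drives glycolysis, was at a mean of 293 CPM, and its r with *JUN* was 0.82 within the high group and 0.98 within the low group, which holds cow 8. No gene was shared between the lists of 5 for *FOS* and for *JUN*.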
